A study of Mus musculus with 54 samples.

Results

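EMD-/y myogenic progenitors, which lack emerin, were compared with wildtype progenitors at day 0, when the cells were switched from proliferative to differentiation medium. The comparison rests on 6 of the 54 samples, 3 labelled replicates of each line, and on the single deposited table that sets these groups side by side. All 17486 genes of that table were taken, out of 19211 genes listed in any of the 8 tables used here. Only 12438 of them, those whose mean over both groups was at least 20 normalized counts, entered the comparison and are called the genes considered. Both lines are H2K progenitors, mouse muscle precursors from animals with a thermolabile large T antigen under the interferon-inducible H-2Kb promoter, so both carry that transgene and were expanded in γ-interferon. Cells were grown on gelatin in DMEM with 20% serum, chick embryo extract and γ-interferon, plated overnight, and harvested at 0 h of differentiation. Wildtype and EMD-/y progenitors came from different mice, and each genotype is represented by 1 line here, so an effect of the missing gene and any other difference between the lines cannot be told apart.

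Both lines, and 4 lines made from EMD-/y cells by adding back emerin (+EMD) or one of the variants S54F, Q133H and Δ95–99, were followed over days 0, 1 and 2. Those 4 lines were kept in puromycin. The protocols speak of 3 technical replicates for each of 2 biological ones, and whether the labelled replicates are the former or the latter is not given there. Each table gives 1 mean per group and no value per sample. Values below are therefore the authors' group means in normalized counts, without error and without test, and a gene is called higher or lower only by size, when the ratio of the means (with 1 added to each) was at least 2-fold. By this rule 490 of the 12438 genes considered were higher in EMD-/y progenitors (3.94%) and 403 were lower (3.24%). Every count of list members below is to be read beside these shares. Values written as a pair, 1 mean against another, give wildtype first and EMD-/y second.

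Emerin is a LEM-domain protein of the inner nuclear membrane. It binds lamins, the chromatin protein BAF and the histone deacetylase HDAC3 with its corepressors, and it ties peripheral chromatin to the nuclear lamina. Loss of emerin causes X-linked Emery-Dreifuss muscular dystrophy, in which skeletal muscle wastes and conduction in the heart fails. Muscle differentiation runs from Pax7-positive progenitors through Myod1 and myogenin to contractile genes, and a comparison at day 0 shows how far apart the lines stood before differentiation medium had acted.

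The deposited means summed to 1.85e+07 normalized counts in wildtype and 1.87e+07 in EMD-/y progenitors. Markers of the labelled cell type were present in both lines. All 10 myogenic markers were considered, among them the muscle intermediate filament gene Des (15306 against 17863) and the cell adhesion gene Cdh15 (3368 against 4169). Listed markers of endothelial cells summed to 41.2 normalized counts in wildtype and 53.3 in EMD-/y progenitors, and those of immune cells to 31.7 and 43.0. Schwann cell markers summed to 66.3 and 106, fat cell markers to 6.01 and 3.30, and epithelial markers to 65.1 and 35.3. The myogenic markers summed to 64122 and 79772, fibroblast markers to 32583 and 25089.8, and mural cell markers to 11234 and 13537. The general leukocyte marker Ptprc was at 0.421 and 0.584. The endothelial cadherin Cdh5 was at 1.02 and 1.99, and the fat cell hormone Adipoq at 0.448 and 0.545. The fibroblast sum came from Col3a1 (23220.2 against 17068), Ly6a (4936 against 3543) and Col1a1 (4342 against 4420.1), while Pdgfra (36.0 against 18.5) and Dcn (25.6 against 11.8) were low and Tcf21 was not listed. Among 7 mural cell markers, Rgs5 (4.01 against 46.2), Cspg4 (79.4 against 483) and Cnn1 (17.5 against 40.3) were at least 2-fold higher in EMD-/y progenitors. Pdgfrb (2484 against 2316), Notch3 (1540 against 1132) and Tagln (7105 against 9514) were not, and Myh11 (3.47 against 6.36) was too low to be considered. The part of other cells in the results was not tested, and in bulk RNA fewer cells of a type and less RNA per cell cannot be told apart.

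The targeted gene was examined first. Emd (gene 13726, chromosome X, 74254674 to 74261563 in GRCm38.p6) had a mean of 1940.5 in wildtype and 3.52 in EMD-/y progenitors, a 429-fold difference. The transcript was thus nearly absent from the EMD-/y mean, as the label states. The genes next to Emd were then read in order, 10 on each side. Of these 20 neighbours, 17 were considered, with a median log2 ratio (EMD-/y over wildtype) of -0.05, and 16 differed by less than 2-fold. Flna, which encodes the actin crosslinker filamin A and lies directly before Emd, had means of 44588 and 40431. Rpl10 on the other side had 1670.2 and 2533. The exception was Renbp, which encodes the renin-binding protein, at 169.6 in wildtype and 374 in EMD-/y progenitors.

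Genes whose products work beside emerin were read next, against the 7.18% of all genes considered that were past 2-fold in either direction. Of the 17 lamina and LEM-domain genes considered, Emd itself was the 1 past 2-fold, and the other 16 lay between log2 ratios of -0.71 (Ankle1) and 0.39 (Tor1aip2). Lmna, which encodes lamins A and C, had 26360.4 in wildtype and 24087 in EMD-/y progenitors. Lmnb1 had 2212 against 2564, Lemd2 609 against 622, Lemd3 466 against 487 and Banf1, which encodes BAF, 1889 against 2122. None of the remaining LEM-domain genes was thus at least 2-fold higher where Emd was missing. The LINC complex, which spans the nuclear envelope and links it to the cytoskeleton, had 5 genes considered and 0 past 2-fold. Sun1 stood at 2254 against 2268, Sun2 at 2269 against 1741 and Syne1 at 1247 against 1379. The 13 emerin-binding regulators also gave 0 genes past 2-fold, with a median log2 ratio of 0.04. Hdac3 had 2191 in wildtype and 2161 in EMD-/y progenitors, its corepressor gene Ncor1 4041 against 3835, and the β-catenin gene Ctnnb1 12277 against 12613. The widest of the 13 was Lmo7, whose product binds emerin and shuttles to the nucleus, with 1137 and 1517.

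**Figure D1:**
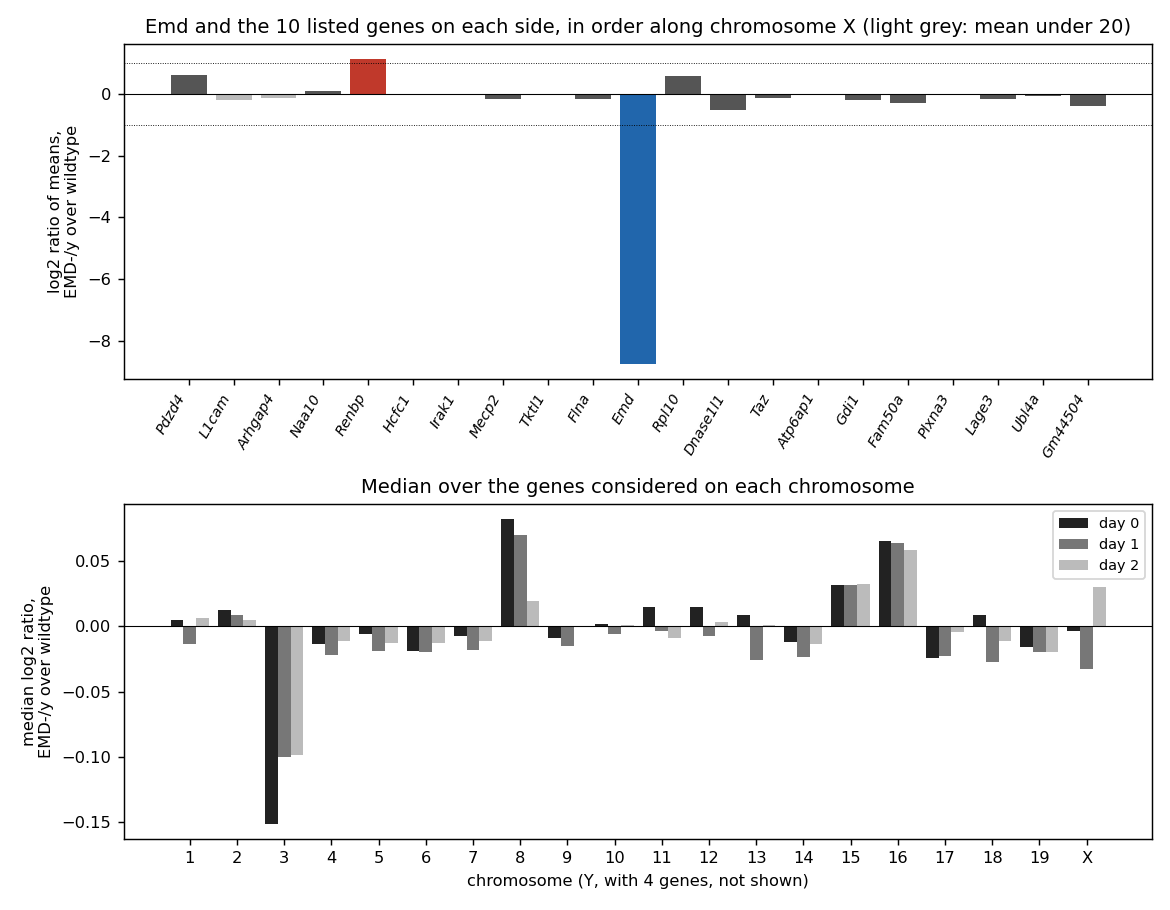
Upper panel: log2 ratio of the group means (EMD-/y over wildtype, day 0) of Emd and its 10 listed neighbours on each side, in chromosome order, with dotted lines at 2-fold and light grey bars for genes with a mean under 20. Emd stands at -8.75, Renbp is the only neighbour past 2-fold, and the other 16 considered lie between -0.53 and 0.63. Lower panel: median log2 ratio of the genes considered on each chromosome at days 0, 1 and 2 (bars), where chromosome 3 is the lowest of the autosomes and X on all 3 days.

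The wildtype day 0 libraries stand in 6 tables, and their mean differed between tables by a median of 1.04-fold over the genes considered. It differed at least 2-fold for 38 genes, among them 25 of the 490 higher and 0 of the 403 lower genes. Of the genes named here these were Irgm2, Ifi211, Speer3 and Aff2, and the mean of Myh7 ranged from 149.7 to 238. For some low genes the wildtype value was higher where the other group was high. That of Aff2 was 2.84 beside 182 in EMD-/y and 0.898 beside 0.795 in +EMD progenitors. The origin of this was not tested, and folds that rest on a wildtype value of a few counts are uncertain.

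Over all genes considered, the median log2 ratio was -0.00049, the middle 50% of genes lay between -0.18 and 0.18, and the middle 90% between -0.76 and 0.88. Low genes spread most. Of the 1936 genes with a mean between 20 and 100, 23.6% were past 2-fold, against 5.50% of the 6131 genes between 100 and 1000 and 2.29% of the 4371 genes above that. Of the 583 genes considered that the sequencing provider predicted from the reads, 47 were higher and 103 lower (25.7% past 2-fold), against 443 and 300 of the 11855 others (6.27%).

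**Figure D2:**
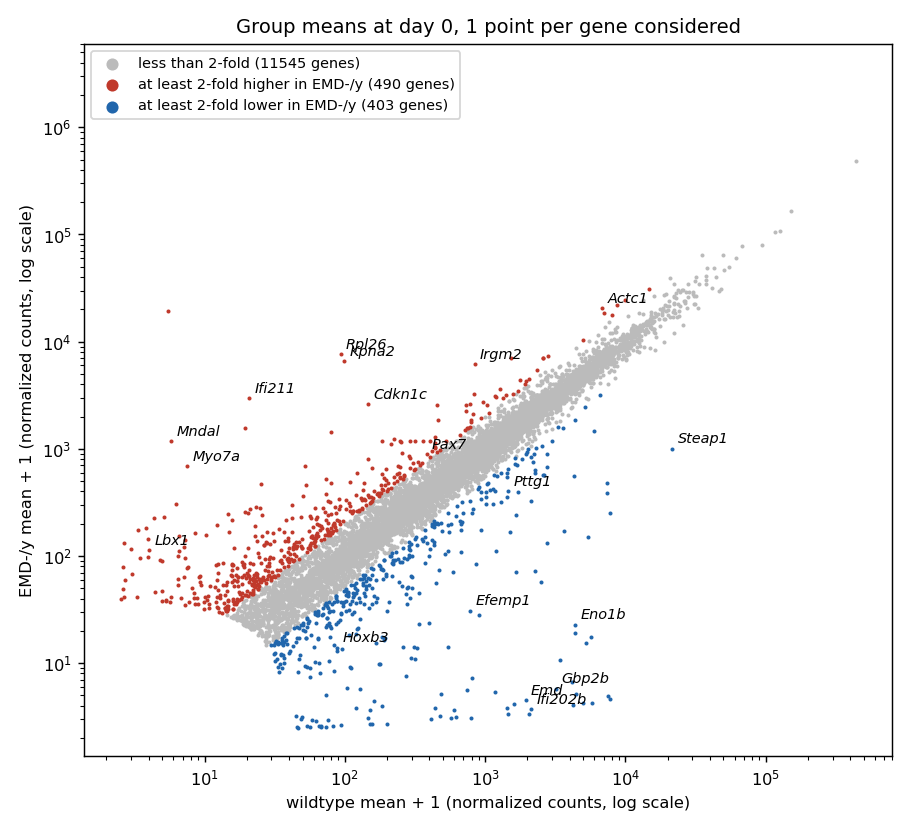
Mean of each gene considered in wildtype (x axis) and EMD-/y progenitors (y axis) at day 0, in normalized counts plus 1, both axes on a log scale. Grey points differ by less than 2-fold, the 490 red points are at least 2-fold higher and the 403 blue points at least 2-fold lower in EMD-/y progenitors, with Emd, Ifi202b and Gbp2b at the lower edge and Mndal, Ifi211 and Rpl26 at the upper left.

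Besides Emd, the named genes furthest below wildtype included several of immunity. Ifi202b, an interferon-induced DNA-binding gene of the Ifi200 family, had 2118 in wildtype and 2.70 in EMD-/y progenitors. Gbp2b, which encodes an interferon-induced GTPase, had 3191 and 4.76. The MHC class I gene H2-Q1 (744 against 4.59) and the class II gene H2-Ea (145 against 2.07) followed. Ifi202b lies on chromosome 1 at 173962569 to 173982844. The group also held the transcription factor gene Tcfl5 (274 against 6.60), the junction gene Kazn (74.8 against 1.96) and Efemp1 (779 against 29.7), which encodes the matrix protein fibulin-3. Steap1, which encodes a membrane protein of the metalloreductase family, had 21503 in wildtype and 999 in EMD-/y progenitors. Ankrd2, which encodes a stretch-responsive ankyrin repeat protein of muscle, had 178 and 8.83. Eno1b (4392 against 21.8), also among them, is a near-identical copy of an enolase gene and is taken up below.

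At the other end stood Mndal (4.76 against 1178) and Ifi211 (19.9 against 2960.5), again of the Ifi200 family. Myo7a, which encodes an unconventional myosin of the inner ear, followed with 6.47 in wildtype and 687 in EMD-/y progenitors, a 92.0-fold difference. Ikzf1, the gene of the lymphoid transcription factor Ikaros, had 3.34 and 223. The receptor phosphatase gene Ptprm had 5.30 and 307, and Aff2, an X-linked transcription elongation gene, 2.84 and 182. The calcium channel gene Cacna1i (2.01 against 115), Speer3 (1.67 against 132) and the claudin-like gene Cldn34c1 (4.12 against 229) also belonged here. Eif2s3y, a Y-linked translation initiation gene, had 18.6 and 1572, whereas the other Y-linked genes considered were alike, with Uty at 403 against 364, Kdm5d at 410.4 against 382 and Ddx3y at 1276 against 1347.

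The last pair among the 12 highest, Rpl26 (92.3 against 7637) and Kpna2 (97.3 against 6560.5), encode a ribosomal protein and an importin that dividing cells need. Both, like Ifi211 and Cldn34c1, have near-identical copies elsewhere in the genome, defined as another transcript aligned over at least 200 bases at 97% identity or more, and how reads were split among such copies is not given in the sources used here. Of 11810 genes searched, 740 had a copy. Of these, 42 (5.68%) were past 2-fold, against 691 (6.24%) of the 11070 without one. For 3 pairs chosen after their values were seen, the counts of gene and copy were added. Eno1 (23792 against 30549) and Eno1b summed to 28184 in wildtype and 30571 in EMD-/y progenitors. Hmga1 (8723 against 21988) and Hmga1b (7418 against 474), which encode an architectural chromatin protein, differed in opposite directions and summed to 16141 and 22462. Eif3j1 (829.6 against 3211) and Eif3j2 (1669 against 237) summed to 2499 and 3448. The sums differed by at most 1.39-fold in these 3 pairs, where the single genes were up to 193-fold apart. Gapdh (1521 against 7009.8) has 46 copies by this search, so its 4.61-fold higher mean is uncertain too.

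Muscle genes formed the list whose median stood furthest above that of all genes. Of 32 sarcomere and contraction genes considered, 30 had a higher mean in EMD-/y progenitors, 8 were at least 2-fold higher and 1 was at least 2-fold lower, with a median log2 ratio of 0.80 beside -0.00049 for all genes considered. Actc1, which encodes the actin of heart and of early skeletal muscle, had 6801 in wildtype and 20394 in EMD-/y progenitors, a log2 ratio of 1.58. Acta1, the actin gene of mature skeletal muscle, had 16081 and 26777, below 2-fold. Among the myosin heavy chain genes, Myh7 (slow) had 238 against 684, Myh1 (fast IIx) 1181 against 3118, Myh8 (perinatal) 1728 against 3487 and Myh4 (fast IIb) 29.9 against 95.6. The opposite held for Myh2 (fast IIa), with 107 in wildtype and 17.3 in EMD-/y progenitors. Troponin and calcium-handling members past 2-fold were Tnni2 (455 against 934) and Casq1 (21.4 against 58.8), and the muscle creatine kinase gene Ckm had 181 and 388. Des, expressed throughout the lineage, differed by 1.17-fold.

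The same list was read over the first day of differentiation in wildtype alone. From day 0 to day 1, 31 of the 32 members were at least 2-fold higher, with a median log2 ratio of 2.51. That comparison shares the wildtype day 0 libraries with the one above, so the values are only set side by side.

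The 250 bases before the start sites of 4 members are shown, Actc1 for its ratio and Myh8, Myh1 and Myh2 because they lie in 1 cluster on chromosome 11 and differ in direction. Sequences are from RefSeq (GRCm38.p6), 5′ to 3′ on the gene's strand, and capitals mark matches to an E-box (CANNTG, the site class of Myod1 and myogenin), a CArG box (of SRF) or a MEF2 box, all of which read alike on both strands.
Actc1 (chr2:114052876-114053125, minus strand): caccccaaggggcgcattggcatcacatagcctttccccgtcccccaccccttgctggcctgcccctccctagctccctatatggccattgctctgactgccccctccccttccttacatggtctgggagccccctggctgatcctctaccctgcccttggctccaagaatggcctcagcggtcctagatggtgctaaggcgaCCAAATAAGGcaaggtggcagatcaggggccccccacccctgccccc
Myh8 (chr11:67276874-67277123, plus strand): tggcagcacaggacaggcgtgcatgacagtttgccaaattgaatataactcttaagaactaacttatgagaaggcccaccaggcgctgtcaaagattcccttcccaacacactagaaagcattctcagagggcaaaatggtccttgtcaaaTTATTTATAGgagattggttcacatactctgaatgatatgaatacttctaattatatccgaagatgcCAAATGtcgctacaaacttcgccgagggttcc
Myh1 (chr11:67199852-67200101, plus strand): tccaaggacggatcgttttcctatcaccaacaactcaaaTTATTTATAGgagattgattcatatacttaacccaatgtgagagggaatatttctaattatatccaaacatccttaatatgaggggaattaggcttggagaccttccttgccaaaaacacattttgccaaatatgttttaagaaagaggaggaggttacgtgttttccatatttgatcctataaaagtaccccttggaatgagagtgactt
Myh2 (chr11:67170777-67171026, plus strand): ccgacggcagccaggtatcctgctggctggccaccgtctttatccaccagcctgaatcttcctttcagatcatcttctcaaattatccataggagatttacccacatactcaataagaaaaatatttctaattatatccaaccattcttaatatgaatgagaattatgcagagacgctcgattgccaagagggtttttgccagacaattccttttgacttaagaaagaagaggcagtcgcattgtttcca
The CArG box of Actc1 begins 47 bases before the start site. The MEF2 box of Myh8 begins 99 bases and that of Myh1 211 bases before it, and Myh8 also holds an E-box at 32 bases. No match was found in the window of Myh2. Promoters were given for 26 of the 32 members considered. A MEF2 box occurred in 5 of these 26 (19.2%) and in 3.03% of all 27025 promoters of this length. A CArG box occurred in 4 (15.4%) and in 1.41%, and an E-box in 21 (80.8%) and in 66.1%. These matches describe the letters in the windows and show no binding.

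Of the 19 myogenic regulators considered, 3 were at least 2-fold higher in EMD-/y progenitors, 0 were lower, and the median log2 ratio was 0.17. Pax7, the satellite cell factor, had 382 in wildtype and 884 in EMD-/y progenitors. Its relative Pax3 had 263 and 258. Of the determination factors, Myf5 had 218 against 318 and Myod1 14052 against 14276, so Myod1 was the most even of these 4 genes. Myog, the factor that starts terminal differentiation, had 7821 and 11971, a 1.53-fold difference that stayed below 2-fold. Mef2c, its partner, had 1573 against 2901. Mef2a stood at 5459 against 6197 and Mef2d at 3067 against 3306. Inhibitors of these factors differed among themselves. Id2 (1939 against 4025) and the Notch target Hey1 (86.9 against 217) were past 2-fold, whereas Id1 (2048 against 1789.9) and Id3 (4773 against 4222) were slightly lower. Eya2 was just short of 2-fold at 13.4 against 26.8. Twist1 (343 against 401), Tcf3 (3098 against 3487), Tcf12 (4554 against 4916), Six4 (686 against 738) and Eya1 (472 against 488) were between 1.03-fold and 1.17-fold higher.

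Fusion and synapse genes also had a median above 0. Of 16 considered, 1 was at least 2-fold higher and 0 lower, with a median of 0.32. That gene was Mymx, which encodes the fusion micropeptide myomixer, with 101 in wildtype and 271 in EMD-/y progenitors. The acetylcholine receptor genes Chrna1 (8388 against 12322), Chrnd (978 against 1432) and Chrng (823 against 1584) were 1.46-fold to 1.92-fold higher. The adhesion genes Ncam1 (6189 against 8407), Vcam1 (3239 against 2484) and Cdh2 (9021 against 7521) split in direction. In the dystrophin complex, Dmd itself had 58.0 against 105.

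**Figure D3:**
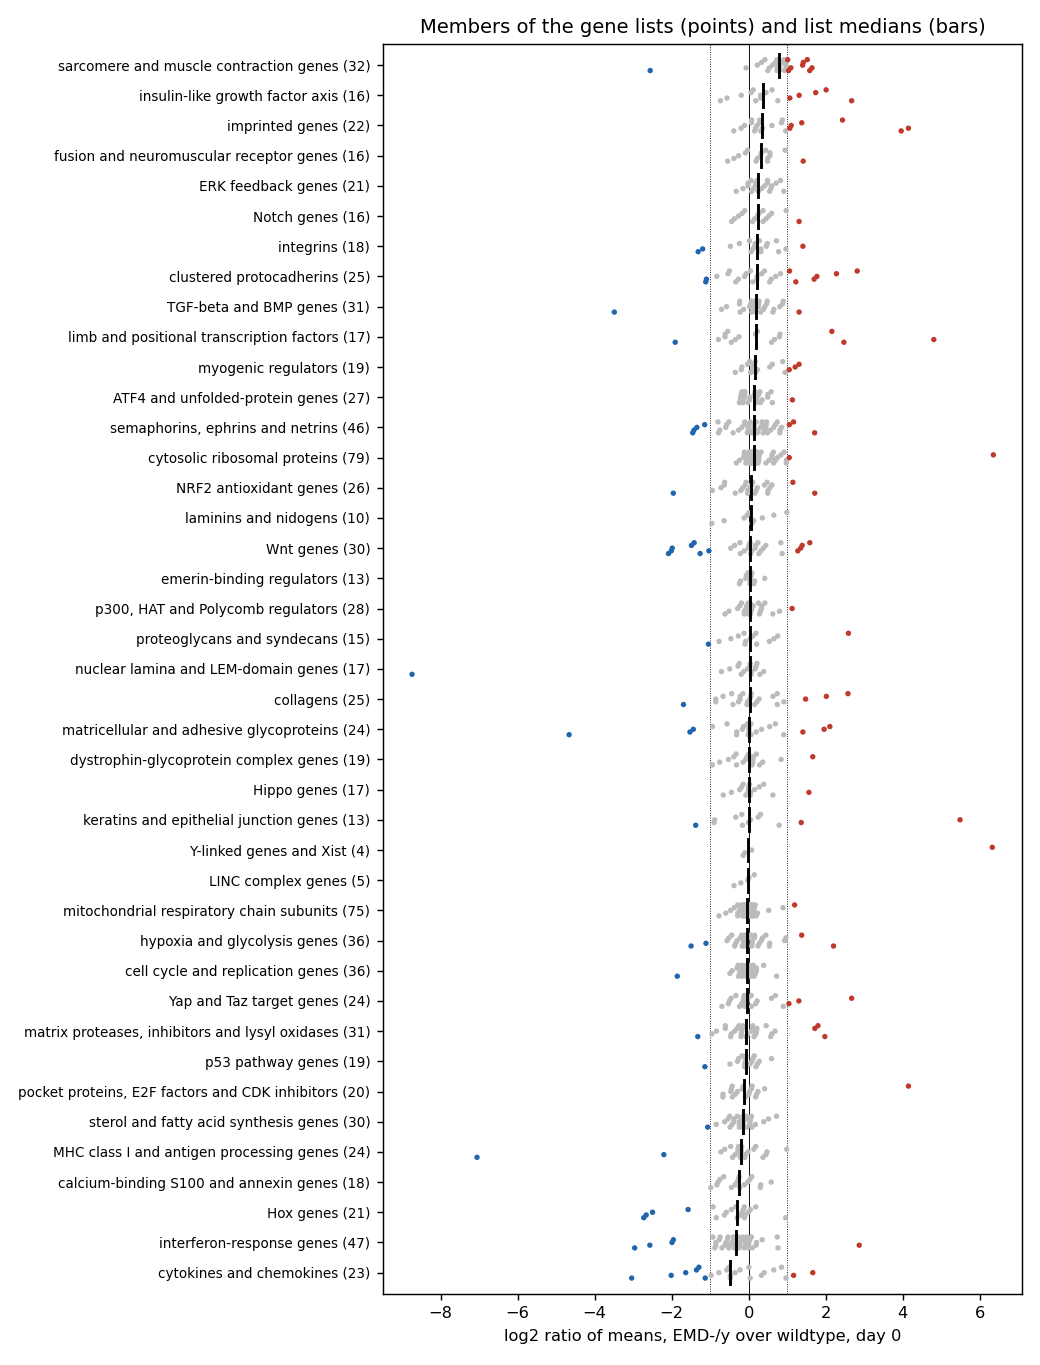
Each point is the log2 ratio of group means (EMD-/y over wildtype, day 0) of 1 gene of a list, red at or above 1, blue at or below -1 and grey between, with the list's median as a black bar and the number of genes considered in brackets. Sarcomere genes have the highest median (0.80), cytokines and chemokines the lowest (-0.48, but -0.13 and no longer the lowest when no minimum mean was set), and the lamina list is narrow apart from Emd.

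Proliferation genes were close to even. Of 36 cell cycle and replication genes, 0 were higher and 1 was lower, with a median of -0.05. The exception was Pttg1, which encodes securin, the inhibitor of sister chromatid separation, with 1455 in wildtype and 401 in EMD-/y progenitors. Mki67, a marker of cycling cells, had 10653 and 7589, Top2a 14380.3 against 12359.6 and the kinesin gene Cenpe 3679 against 2728. The cyclin gene Ccnd2 was the highest of the list at 2753 against 4553. Among 20 genes of pocket proteins, E2F factors and CDK inhibitors, 1 was higher and 0 lower. It was Cdkn1c (chromosome 7, 143458339 to 143461059), which encodes the CDK inhibitor p57, with 146 in wildtype and 2612 in EMD-/y progenitors, a 17.7-fold difference. The related inhibitor gene Cdkn1a (p21) had 7834 against 10427, Cdkn2a 3979 against 2885 and Cdkn2c 871 against 548. Of 19 p53 pathway genes, the death receptor gene Fas (178 against 80.3) was the 1 lower, and Trp53 had 3284 against 3973.

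Cdkn1c is also an imprinted gene, expressed from 1 parental copy. Of 22 imprinted genes considered, 6 were at least 2-fold higher, 0 were lower, and the median log2 ratio was 0.34. Dlk1, a Notch-like growth regulator, had 11.3 and 191. Grb10, an adaptor that restrains insulin signalling, had 41.0 against 226, Mest 2828 against 7349 and Ppp1r9a 74.8 against 162. Igf2, a growth factor that muscle cells make for themselves, had 14822 in wildtype and 31067 in EMD-/y progenitors. Peg3, 1 of the 3 members below wildtype, had 26507 against 23121.

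Igf2 belongs to the insulin-like growth factor axis as well, where 5 of 16 genes were higher and 0 lower, with a median of 0.38. Of the binding proteins, which hold IGFs outside the cell, Igfbp3 had 182 against 1169.8, Igfbp2 784 against 2619.7 and Igfbp5 1774 against 4399. Igf2bp3, an RNA-binding protein gene of embryonic tissues, had 292 in wildtype and 1179 in EMD-/y progenitors. Transcripts of both a ligand and its carriers were higher in the same line.

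Matrix genes past 2-fold lay in both directions, and their counts stand beside 3.94% higher and 3.24% lower over all genes considered. Of 25 collagen genes, 3 were higher and 1 lower. Col6a3, which encodes a chain of the collagen VI network around muscle fibres, had 458 in wildtype and 1856 in EMD-/y progenitors. Col14a1 (5.76 against 39.4) and Col24a1 (21.3 against 61.0) were higher from low levels, and Col8a2 (92.6 against 27.9) was lower. The fibrillar collagen genes Col1a1 (4342 against 4420.1), Col1a2 (32799 against 20668) and Col3a1 (as above) stayed below 2-fold. The 10 laminin and nidogen genes gave 0 calls, with Nid2 at 16214 against 8349 and Nid1 at 6785 against 10660.2 in opposite directions. Of 24 matricellular genes, 3 were higher and 3 lower. Postn (periostin) had 56.6 against 223 and Reln (reelin) 10.9 against 50.3. The remaining higher gene was Tnc, which encodes tenascin C, an anti-adhesive protein of developing and injured muscle. Efemp1, Thbs2 (1131 against 417) and Mfap5 (44.1 against 14.6) were lower, while Spp1 (117022 against 104492) and Thbs1 (61295 against 59781) were nearly even.

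Proteoglycan genes included Cspg4 (NG2), 6.02-fold higher, and Fmod (fibromodulin), which was lower, at 70.9 against 33.8. Of 31 protease, inhibitor and crosslinking genes, 3 were higher and 1 lower. Loxl1, a lysyl oxidase-like gene, had 730.0 in wildtype and 2543 in EMD-/y progenitors. Mmp9 (9.65 against 40.9) and Adamts9 (9.83 against 34.6) were higher from low levels, and the aggrecanase gene Adamts5 was lower, with 2224 and 889. Of 18 integrin genes, Itga9 (57.1 against 153) was higher and Itgb7 (228 against 91.1) and Itga10 (83.3 against 35.8) lower. The muscle laminin receptor gene Itga7 had 5159 against 7078.

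Of 23 cytokine, chemokine and growth factor genes, 14 had a lower mean in EMD-/y progenitors, 6 were at least 2-fold lower and 2 higher, with a median of -0.48 that was -0.13 when no minimum mean was set. Fgf10, a mesenchymal growth factor gene, had 65.0 in wildtype and 7.03 in EMD-/y progenitors. The related Fgf7 had 1012 against 395, Hgf, which activates satellite cells, 1951 against 891, Vegfd 125 against 39.6, Tnfsf11 68.2 against 27.2 and the chemokine gene Cxcl14 2750.0 against 680.2. Lif (62.2 against 199) and Cx3cl1 (1334 against 2994) were the higher members. Of 31 TGF-β and BMP genes, 24 had a higher mean, 1 was at least 2-fold higher and 1 lower, with a median of 0.18. The lower gene was Bmp4, with 192 and 16.2.

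The Wnt list was divided, with 4 of 30 genes higher and 7 lower. Lower ligand and agonist genes were Wnt10a (59.0 against 13.1), Wnt4 (165 against 58.4) and Rspo3 (119 against 43.9), beside the receptor gene Fzd1 (2029 against 990.3). Lower inhibitor genes were Sfrp2 (395 against 98.8), Nkd2 (47.0 against 10.9) and Dkk3 (484 against 201). Higher were Wnt5a (224 against 544), Wnt9a (180.2 against 461), the nuclear effector gene Lef1 (196 against 514) and the feedback target Axin2 (9.80 against 31.4). Ligand genes thus stood on both sides. Hey1 was the 1 of 16 Notch genes past 2-fold. In the Hippo list, 1 of 17 was, namely Vgll2, a muscle cofactor of TEAD proteins, with 42.2 against 127. Both shares (6.25% and 5.88%) were near the 7.18% past 2-fold over all genes considered. Of 24 Yap and Taz target genes, Igfbp3, Rbms3 (233 against 576) and Crim1 (719 against 1485) were higher and 0 were lower. Yet 14 of the 24 had a lower mean, with a median log2 ratio of -0.05, and the classical target Ankrd1 had 17486 against 16132.

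Interferon-response genes leaned below wildtype, in cells that both had γ-interferon in their medium. Of 47 considered, 37 had a lower mean in EMD-/y progenitors, 4 were at least 2-fold lower and 1 was higher, with a median of -0.33. Not on this list are Ifi202b and Gbp2b, far below wildtype, and Mndal, Ifi211 and Ifi205, far above it. Gbp5, an inflammasome-linked GTPase gene, had 4299 in wildtype and 551 in EMD-/y progenitors. The chemokine gene Cxcl9 had 1426 against 357, Ifi44 673 against 173 and Oas1g, which has a near-identical copy, 60.1 against 9.30. Irgm2, which encodes a regulatory GTPase, was the exception, with 840.4 and 6152. Its value is uncertain, since the mean of these same wildtype libraries lay anywhere from 9.95 to 840.4 in the 6 tables that give it. Iigp1 (54429.8 against 50135) and Tgtp2 (19301 against 22009.8) differed by less than 2-fold. Of 24 MHC class I and antigen processing genes, 18 had a lower mean and 2 were past 2-fold, H2-Q1 and H2-T10 (2599 against 563). The classical gene H2-D1 had 30719.9 against 26390.0 and B2m 37280.0 against 40852.

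The Ifi200 family on chromosome 1 was then read gene by gene, chosen after its members appeared at both ends of the table. Its 11 listed genes lie between positions 173349547 and 174031755. In chromosome order, Ifi204 had 2579 against 2583, Mndal and Ifi211 were 205-fold and 142-fold higher, Ifi203 had 1467 against 864, Ifi202b was 572-fold lower, and Ifi205 was 19.4-fold higher. Higher and lower genes lay next to each other within this stretch, and the inflammasome sensor gene Aim2 at its edge had 24.3 against 30.3.

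Some genes that record body position also differed between the lines. Of 21 Hox genes, 18 had a lower mean, 4 were at least 2-fold lower and 0 higher, beside 3.24% lower and 3.94% higher over all genes considered. The list's median was -0.30, and -0.11 with a minimum mean of 100. All 4 lower genes had means between 20 and 100, a level at which 23.6% of genes were past 2-fold. Hoxb2 (64.6 against 8.91), Hoxb3 (86.7 against 12.8) and Hoxb4 (45.4 against 7.21) are neighbours on chromosome 11, and Hoxc12 had 112 against 37.0. The posterior genes Hoxc9 (933 against 926) and Hoxc10 (1164 against 1077) were even. Of 17 positional factors, Lbx1, which marks migrating limb muscle precursors, had 3.04 in wildtype and 112 in EMD-/y progenitors. Meis2 (222 against 1237) and Tbx1 (108 against 486), a factor of head and pharyngeal muscle, were higher too, and Lhx2 (86.0 against 22.2) was lower. Clustered protocadherin genes, adhesion genes of which single cells express a subset, gave 6 higher and 2 lower of 25. Pcdhgb2 had 72.3 against 516 and Pcdhga1 132 against 60.2, while Pcdhgc3 had 10063 against 9616.

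Chromosomal position was described for all genes. Runs of at least 3 genes past 2-fold, each starting within 300 kb of the one before, were sought after the data were seen. Genes less than 2-fold apart were passed over, so they may lie within a run, and no expected number of runs was worked out. There were 20 such runs with 75 genes, 11 of them in a single direction. The largest held 8 protocadherin genes on chromosome 18. Other runs were the Hoxb genes, 4 complement and phosphatase genes on chromosome 6 that were all lower (C1rl, C1ra, C1rb, Ptpn6), and Ifitm10, Tnni2, Lsp1 and Igf2 on chromosome 7, all higher. Medians per chromosome lay between -0.02 and 0.08 on X, Y and every autosome but chromosome 3. Chromosome 3 lay outside this range, with a median log2 ratio of -0.15 and 416 of its 579 genes considered (71.8%) below 0. Its median was -0.10 at day 1 and -0.10 at day 2, so a shift of this sign was measured in 3 sets of libraries. Smaller shifts the other way were seen on chromosome 8 (411 of 655 genes above 0) and chromosome 16 (238 of 374). Their medians on the 3 days were 0.08, 0.07 and 0.02, and 0.07, 0.06 and 0.06.

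The comparison was repeated within the tables of the later days, which use other libraries of the same lines. At day 1, 422 of 12439 genes considered were higher (3.39%) and 278 lower (2.23%), and at day 2, 482 of 12214 were higher (3.95%) and 280 lower (2.29%). Of the 490 genes higher at day 0, 259 were also higher at day 1, which is 52.9% of the day 0 list and 61.4% of the day 1 list. At day 2 it was 200, or 40.8% and 41.5% of the lists, and 181 were higher on all 3 days. Of the 403 genes lower at day 0, 196 were also lower at day 1 (48.6% and 70.5%), 163 at day 2 (40.4% and 58.2%) and 140 on all 3 days. Predicted genes made up 71 of those 140 and 9 of the 181. Neither later day held 212 of the higher and 184 of the lower genes. Across 11986 genes considered on both days, Pearson's r of the log2 ratios was 0.88 between days 0 and 1, and 0.82 over 11742 genes between days 0 and 2. Genes are not independent replicates, and the lines are shared.

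Opposite calls were rare. No gene called at day 0 had the opposite call at day 1, and 3 did at day 2, all lower at day 0. Pttg1 had log2 ratios of -1.86, -1.29 and 2.19 on the 3 days. The angiogenic factor Vegfd had -1.64, -0.28 and 1.21, and Ptn, which encodes pleiotrophin, -1.76, -0.15 and 1.77. In the cell cycle list of Pttg1, 13 genes were higher and 0 lower at day 2. Mki67 had -0.49 at day 0 and 2.33 at day 2.

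Lists differed in their course over the days, a description with no test. The sarcomere median of 0.80 at day 0 was 0.20 at day 1 and -0.03 at day 2, and its count of higher genes was 8, 4 and 1. Acta1 had 0.74, -0.07 and -0.04, Myog 0.61, -0.23 and -0.17, whereas Actc1 had 1.58, 1.29 and 1.15. The satellite cell factor Pax7 had 1.21, 2.64 and 2.63, further above wildtype on both later days. The imprinted median was 0.34, 0.53 and 0.56, and that of the IGF axis 0.38, 0.37 and 0.71. Cdkn1c had 4.15, 2.80 and 2.78, Lbx1 4.81, 5.32 and 5.74, and Hoxb3 -2.66, -3.80 and -2.77. These last 3 genes kept their direction on every day.

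**Figure D4:**
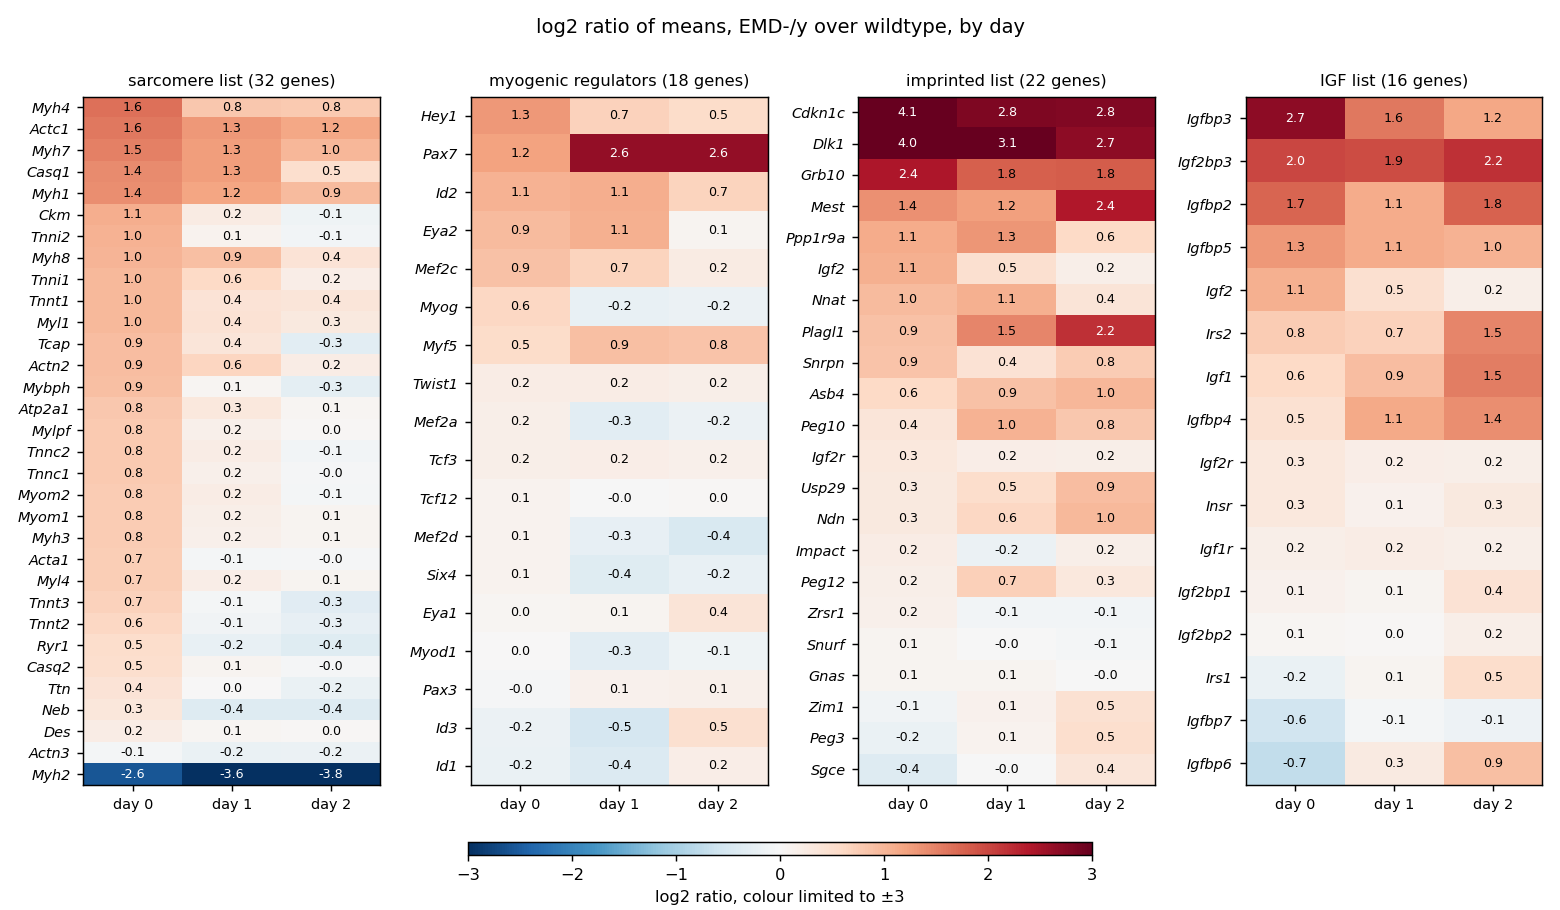
log2 ratio of group means (EMD-/y over wildtype) at days 0, 1 and 2 for genes considered at day 0 of 4 lists, each day within its own table, with colours limited to 3 in size. The sarcomere column is mostly above 0 at day 0 and near 0 at day 2, while Cdkn1c, Dlk1, Pax7 and the IGF-binding genes Igfbp2, Igfbp3 and Igfbp5 stay above 1.

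The transduced lines were derived from EMD-/y progenitors, and each is compared with the same wildtype libraries at day 0, so their values are set side by side only. The authors plated the emerin mutant lines more densely than wildtype and EMD-/y cells, so line and density cannot be told apart there. Emd had log2 ratios over wildtype between -9.63 and -9.06 in the 4 transduced lines, +EMD included. The transduced emerin sequence was not examined here. The paper reports emerin protein in each of these lines by Western blot. Low Emd counts there are therefore not to be read as absence of emerin. Myo7a had log2 ratios of 6.52 in EMD-/y and 6.60 in +EMD progenitors, 4.82 with Q133H, 6.51 with S54F and 6.18 with Δ95–99. Ifi202b lay between -9.79 and -9.16 in the 5 lines. Ikzf1 had 5.69 in EMD-/y, 8.74 in +EMD and 1.35 in Q133H progenitors. In +EMD progenitors, Ptprm (4.79) and Aff2 (0.795) were near the wildtype means of 3.50 and 0.898 in that table. Cdkn1c had log2 ratios over wildtype of 4.04 in +EMD progenitors, 0.46 with Q133H, 3.42 with S54F and 2.19 with Δ95–99. Actc1 had 0.57, -0.26, 0.62 and -0.19 in the same order. Pax7 had 2.49, -6.35, 1.16 and 1.99, so it was below wildtype with Q133H and above it in the other lines.

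**Figure D5:**
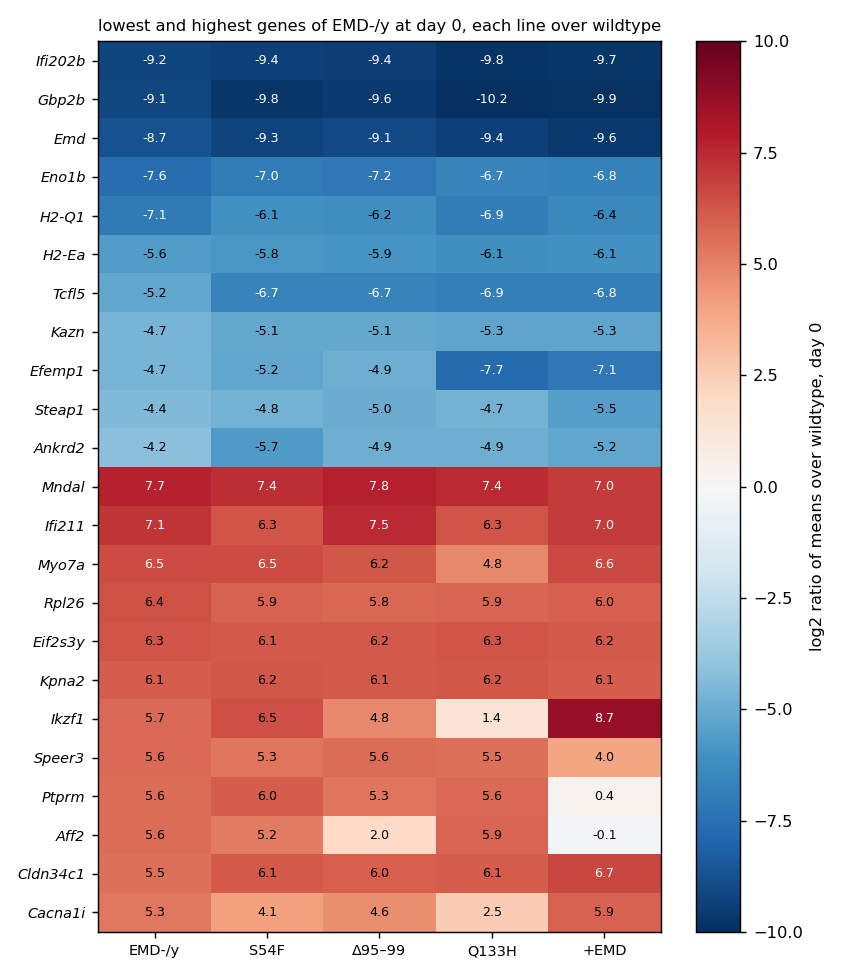
log2 ratio of group means over wildtype at day 0 for the lowest and highest named genes of EMD-/y progenitors, in EMD-/y and the 4 lines derived from them, each within its own table and all against the same wildtype libraries. The lowest genes, in the blue rows, are below 0 in every column, while Ikzf1 has 1.35 in Q133H and Ptprm 0.36 and Aff2 -0.08 in +EMD progenitors.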

How the data were processed

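RNA was poly-A selected, sequenced paired-end on the DNBSEQ platform, filtered with SOAPnuke and mapped to mm10 with HISAT2, and the authors used DESeq2. The deposited tables give, for each gene and each pair of groups, the authors' 2 group means of normalized counts, treated here as a signal scaled within its table. They also hold fold changes, p-values and calls of the authors, which were not used. No column holds values per sample (0 such columns), so genes are described by size with no test, and the depth of each library is unknown. Tables were normalized separately, and values are compared within a table only, except where the wildtype mean is set side by side across tables. Of 27 tables, 8 were used. Genes whose mean of both group means was at least 20 were considered, log2 ratios were taken with 1 added to each mean, and genes at least 2-fold apart were called. Alternatives changed the minimum, the added constant, the fold, the scaling and the predicted genes, 1539 of which were in the day 0 table. Of 15947 Entrez gene IDs, 15925 matched RefSeq symbols (GRCm38.p6). Coding transcripts of GENCODE vM21 were aligned with minimap2 2.31-r1302 to find near-identical copies. Scripts used Python 3.11.15, numpy 2.4.6, pandas 2.3.3 and matplotlib 3.10.9 and were tested on simulated data. Named genes were Emd with 10 neighbours on each side, the 12 highest and 12 lowest ratios among genes that are neither predicted nor unnamed models, of each list up to 4 members with the largest size of ratio and 2 with the highest mean, all members of the lamina, LINC, emerin-binding and myogenic regulator lists, and the cell type markers. Other genes in the text, the runs and the copy pairs were picked after their values were seen. The members and lists were chosen with earlier results of these data known. A few genes are not reported here.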

Additional observations from a re-analysis of the deposited data

How the results depend on the processing

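No paired analysis was possible because the tables hold group means only, and for the same reason no replicate could be left out. The counts depended mainly on the fold and the minimum. At 1.5-fold, 1060 genes were higher and 862 lower at day 0, and at 4-fold 140 and 147. With a minimum mean of 100, 226 were higher and 211 lower, and with no minimum 760 were higher. Of the higher genes, 555 were also higher at day 1, 449 at day 2 and 394 on both days at 1.5-fold. These counts were 73, 60 and 52 at 4-fold, 110, 91 and 82 with a minimum of 100, and 420, 347 and 303 with none. Of the lower genes, 403, 302 and 258 recurred in this order at 1.5-fold, 97, 96 and 85 at 4-fold, 104, 81 and 72 with a minimum of 100, and 121, 77 and 69 with the predicted genes left out. Genes on any list numbered 167 higher and 108 lower at 1.5-fold, and 19 and 15 at 4-fold, and 23 were lower with a minimum of 100. With that minimum the median log2 ratio was -0.00078 for ATF4 genes, -0.11 for Hox genes and 0.11 for protocadherins, and with no minimum it was -0.13 for cytokines. The other 324 of 328 list medians moved by less than 0.1. Leaving out genes whose wildtype mean differed at least 2-fold between tables, an alternative chosen after seeing the data, gave 465 higher and 403 lower genes and removed the 1 higher interferon-response gene. Scaling to equal sums gave 480 higher and 406 lower genes and moved the median by -0.01. No named gene past 2-fold changed direction under any alternative. Means without replicates cannot show which of these differences exceed the spread between samples.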

Other observations

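Metabolic and stress lists were read beside the 7.18% of all genes considered that were past 2-fold at day 0. Of 26 NRF2 antioxidant genes, Gpx3 (195 against 641) and the glutathione reductase gene Gsr (794 against 1759.9) were higher, and Gsta1 (115 against 28.7) was lower. Of 27 ATF4 and unfolded-protein genes, Fgf21, which encodes a stress hormone, was higher (15.2 against 34.6). Of 30 sterol and fatty acid synthesis genes, the desaturase gene Scd1 was lower (3308 against 1580.1), and 21 had a lower mean, with a median log2 ratio of -0.15. Among 36 hypoxia and glycolysis genes, Gapdh and Ldhb (62.7 against 164) were higher, and Ndrg1 (542 against 192) and Adm, which encodes adrenomedullin (62.9 against 28.6), were lower. Of 75 respiratory chain genes, 1 was past 2-fold, the muscle isoform Cox6a2 (56.3 against 129.8).

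Of 79 cytosolic ribosomal protein genes, 70 had a higher mean in EMD-/y progenitors, with a median of 0.13, and Rpl26 and Rpl29 (4979 against 10337) were past 2-fold. As 63 of the 79 have near-identical copies, the part of read assignment in these values was not tested. The 21 ERK feedback genes gave 0 calls, with 17 above 0 and a median of 0.25. The 18 S100 and annexin genes also gave 0, with 13 below 0 and a median of -0.26. Of 28 p300, acetyltransferase and Polycomb genes, Tet1, which encodes a DNA demethylase, was higher (55.7 against 123). Of 46 semaphorin, ephrin and netrin genes, Ntn1 (1568 against 3257), Ntn4 (524 against 1174) and Unc5a (13.3 against 46.0) were higher. Unc5c (936 against 341), Epha3 (113 against 43.7), Sema4g (44.5 against 16.0) and Sema3f (32.4 against 14.1) were lower. Of 13 keratin and epithelial junction genes, Cldn34c1 and the plakophilin gene Pkp3 (13.7 against 36.8) were higher, and the E-cadherin gene Cdh1 was lower.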
